A study of Mus musculus with 11 samples.

Results

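Genes that kidney tubule cells switch on when they are injured or regrow were examined in the S3 segment of the proximal tubule, the straight part that lies in the outer medulla. The list held 10 genes: Havcr1, Lcn2, Vcam1, Krt8, Krt18, Krt20, Spp1, Clu, Sox9 and Cdkn1a. A gene was taken from probes annotated with its symbol alone, and the probe with the highest mean over all arrays was kept. This gave 9 of the 10 genes, out of 22180 genes with such a probe, and Spp1 was not analysed here. Krt18 had 2 probes and the other genes 1 each.

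The series compared 5 arrays from THP -/- mice with 6 arrays from wild-type (THP+/+) mice, all of strain 129/SvEv and all of kidney S3 proximal tubule. THP, Tamm-Horsfall protein or uromodulin, is the product of Umod and is a urinary glycoprotein made for the most part in the thick ascending limb, a neighbour of S3 tubules in the outer medulla. The knockout arrays fell into batch 1 (3 arrays) and batch 2 (2 arrays), the wild-type arrays into batch 1 (5 arrays) and batch 2 (1 array), and 2 ng of RNA was labelled for each. The labels give no age, sex or treatment and name no cell type or promoter for the deletion. They also leave unsaid whether the arrays are of different mice: p-values here measure the spread between arrays, which may be technical.

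In a healthy proximal tubule most of these genes are quiet. After ischaemia or toxins, surviving cells lose part of their transport programme and make Havcr1 (KIM-1, a membrane receptor for phosphatidylserine on dead cells). Lcn2 (NGAL, a secreted carrier of iron-binding siderophores) also rises in the injured kidney, not only in the proximal tubule. Both Havcr1 and Lcn2 products are read in urine as injury markers. Cells that are repairing themselves or fail to do so carry the transcription factor Sox9, the adhesion molecule Vcam1, keratins and the cell cycle inhibitor Cdkn1a (p21). Several of the genes have a normal home elsewhere in the kidney: Krt8 and Krt18 in distal tubule and collecting duct epithelium, Clu in distal nephron cells, and Vcam1 also in activated endothelium.

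Promoter sequences from RefSeq (GRCm38.p6, 250 bases before to 50 bases after the annotated start) were found for 6 of the 9 measured genes, namely Havcr1, Lcn2, Krt8, Krt18, Krt20 and Cdkn1a. The windows below are of Havcr1, the marker with the smallest p between genotypes, of the p53 target Cdkn1a, whose signal had the highest correlation with Havcr1 among the markers, and of the keratin genes Krt8 and Krt20, which hold a TATA box sequence. Capitals mark matches, on either strand, to TATAAA or to CATGNNNNNNCATG, a spacing of CATG cores that p53 binding sites can have. TTCNNNGAA, a STAT-type sequence, and GGGCGG, an Sp1-type sequence, were searched in the same way.
Havcr1, first of 3 start sites, chr11:46739973-46740272, plus strand: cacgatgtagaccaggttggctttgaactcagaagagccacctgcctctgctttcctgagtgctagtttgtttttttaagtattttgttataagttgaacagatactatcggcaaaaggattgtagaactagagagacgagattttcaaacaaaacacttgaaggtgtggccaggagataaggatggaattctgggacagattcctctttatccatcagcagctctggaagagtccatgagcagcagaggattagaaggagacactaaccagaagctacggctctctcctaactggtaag
Cdkn1a, first of 2 start sites, chr17:29090729-29091028, plus strand: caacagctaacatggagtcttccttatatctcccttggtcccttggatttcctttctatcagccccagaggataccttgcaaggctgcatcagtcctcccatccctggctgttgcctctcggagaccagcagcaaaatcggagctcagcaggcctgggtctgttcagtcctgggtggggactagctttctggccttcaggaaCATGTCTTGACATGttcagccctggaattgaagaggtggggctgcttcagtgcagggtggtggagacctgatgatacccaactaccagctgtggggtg
Krt8, chr15:102004293-102004592, minus strand: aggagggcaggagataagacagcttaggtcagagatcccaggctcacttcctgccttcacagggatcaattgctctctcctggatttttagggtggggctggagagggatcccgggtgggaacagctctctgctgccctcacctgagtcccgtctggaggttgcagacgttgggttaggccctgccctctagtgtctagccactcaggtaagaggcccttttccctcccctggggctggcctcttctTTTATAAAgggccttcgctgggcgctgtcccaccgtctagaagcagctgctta
Krt20, chr11:99438104-99438403, minus strand: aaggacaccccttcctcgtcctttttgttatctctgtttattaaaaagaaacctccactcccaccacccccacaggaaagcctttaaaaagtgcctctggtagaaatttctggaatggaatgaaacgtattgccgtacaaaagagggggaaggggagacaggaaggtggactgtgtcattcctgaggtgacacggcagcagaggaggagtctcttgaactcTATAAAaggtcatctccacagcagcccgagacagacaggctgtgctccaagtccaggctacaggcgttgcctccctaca

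Of all 32851 promoter windows of this length, 0.712% held CATGNNNNNNCATG, 13.6% TATAAA, 35.7% GGGCGG and 8.3% TTCNNNGAA. The Cdkn1a match began at -48 from the first start, and the second Cdkn1a window held 2 matches to GGGCGG instead. Krt20 had TATAAA beginning at -29 from its start, where TATA boxes usually lie, and the Krt8 matches on both strands overlapped right at its annotated start. Lcn2 held 1 GGGCGG, and no window of Havcr1 or Krt18 held any of the 4 sequences. A match is only a run of letters, and these arrays carry no measurement of what binds there.

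Umod, the targeted gene (Entrez 22242), had a mean log2 signal of 4.49 ± 0.582 (SD, n = 5) in knockout and 5.80 ± 0.579 (SD, n = 6) in wild type. The groups met only at 5.27, on knockout replicate 5 and on wild-type replicates 2 and 5 of the other batch. Within each batch every knockout array lay under every wild-type array. Adjusted for batch, Umod differed by -1.52 ± 0.24 log2 (SE). The unadjusted limma p was 6.82e-05, the adjusted limma p 0.281 and the exact within-batch permutation p 0.00595. This direction went with the labels. The sources used here do not say whether the Umod probe lies in the deleted stretch, so Umod is a limited check of the labels. On all 11 arrays 16 of 17 measured S3 markers lay above the array median, as did 14 of 16 markers of the S1 and S2 segments and 12 of 15 of the thick ascending limb, so this count does not single out S3. Among the S3 genes was the amino acid transporter gene Slc7a13, with 10.68 ± 0.708 in knockout and 10.23 ± 0.267 in wild type (SD, n = 5 and 6). The array of knockout replicate 4 stood apart by its higher signal of the distal nephron, some of which was present on every array. There the salt transporter gene Slc12a1 of the thick ascending limb read 10.05, against 6.78 to 7.35 on the other knockout arrays and 5.22 to 7.54 on wild-type arrays, and the water channel gene Aqp2 of the collecting duct read 8.48, against 4.81 to 5.52 and 5.06 to 6.08. Differences of markers for which this array is the highest or lowest of its group are given with and without it.

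The 9 measured markers did not share a direction in the knockout. The limma adjusted p with Benjamini-Hochberg over all 41345 probes passed 0.05 for 0 markers, as for 0 probes in all (0%). At an unadjusted limma p under 0.05, 1 of 9 markers was lower in the knockout, namely Havcr1, where 2.76% of all probes (1141) were lower, and 0 of 9 were higher, where 3.4% of all probes (1405) were. By sign alone 3 markers were higher and 6 lower, 33.3% higher beside 53.4% of all genes. The median log2 difference was -0.061, beside 0.015 over all genes with 1 probe each and 0.0021 over all probes. Havcr1 had the smallest p of the markers, and its rank by p among 22180 genes was 139. The next was Krt8 at rank 2778.

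**Figure D1:**
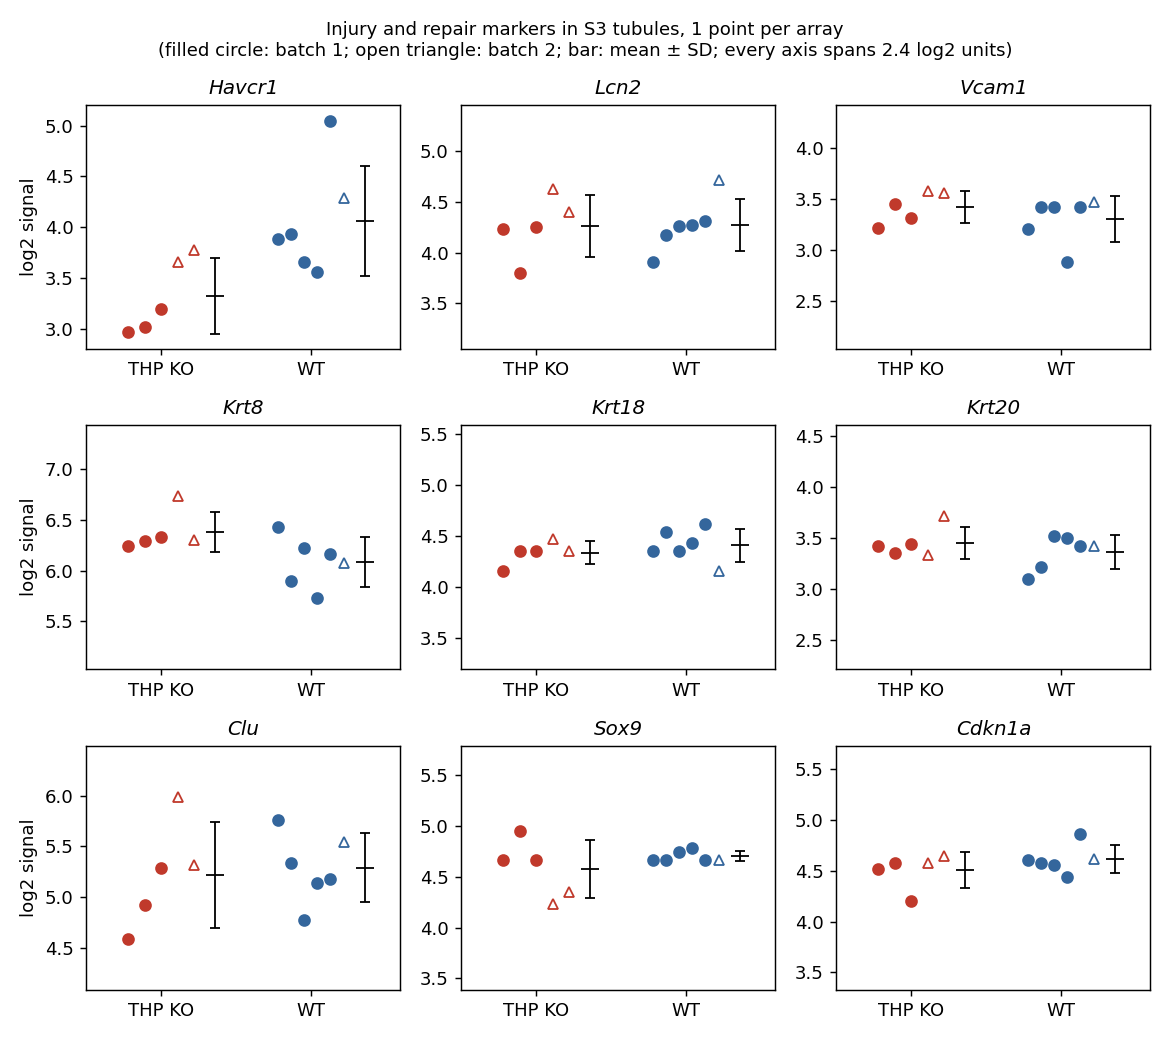
Log2 signal of each measured marker (y axis, log2 units) on 5 THP KO arrays (left, red) and 6 WT arrays (right, blue). Each point is an array, filled circles are batch 1 and open triangles batch 2, and the bar beside the points gives mean ± SD. In Havcr1 the knockout arrays, at 2.97 to 3.77, sit mostly under the wild-type arrays, at 3.56 to 5.04. In Krt8 the knockout arrays, at 6.24 to 6.73, sit mostly above the wild-type arrays, at 5.73 to 6.43. The groups overlap in every marker.

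Havcr1 (Entrez 171283, probe 17248847), the gene of KIM-1, had the smallest p between the genotypes among the markers, although not past the adjusted threshold. The knockout arrays read 2.97, 3.02, 3.19, 3.66 and 3.77, and the wild-type arrays 3.88, 3.93, 3.66, 3.56, 5.04 and 4.29, in replicate order. Within each batch every knockout array lay under every wild-type array, although over both batches the 2 knockout arrays of batch 2 overlapped the lowest wild-type arrays of batch 1. Such a separation in both batches was found for 0.607% of all probes in this direction and for 0.793% in the opposite one, where 0 of 9 markers had it. The mean was 3.32 ± 0.37 in knockout and 4.06 ± 0.543 in wild type (SD, n = 5 and 6).

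Adjusted for batch, Havcr1 differed by -0.85 ± 0.25 (SE) on the log2 scale (95% interval -1.40 to -0.31). Batch 1 alone gave -0.95 and batch 2 alone -0.57. When genotype was permuted within batches over all 168 arrangements, the exact two-sided p was 0.00595, the smallest they can give, and the unadjusted limma p was 0.00557. After adjustment over all probes the limma p was 0.674, so the difference did not pass over the whole table. Wild-type replicate 5, at 5.04, was the highest array, and without it the log2 difference was -0.663 with an unadjusted limma p of 0.000235 and an adjusted p of 0.375. Without knockout replicate 4 it was -0.863. Havcr1 signal lay above the array median on 3 of 11 arrays and the files give no background measure for it, so the size of its difference is uncertain on any scale.

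**Figure D2:**
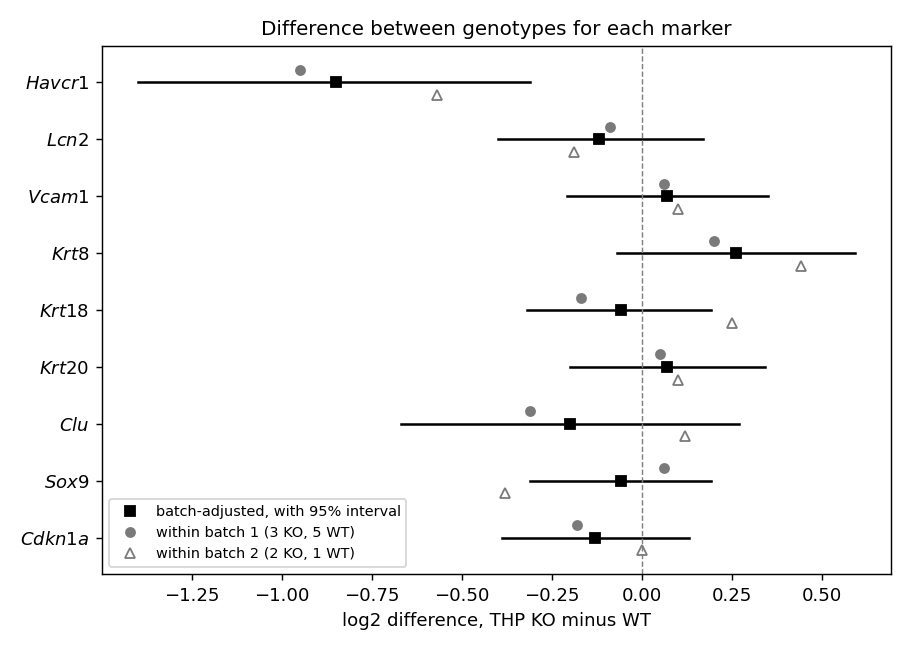
Log2 difference between THP KO and WT for each marker (x axis, log2 units), with negative values lower in the knockout. Squares and lines give the batch-adjusted difference and its 95% interval, circles the difference within batch 1 and open triangles that within batch 2. The Havcr1 interval, from -1.40 to -0.31, lies wholly under 0, and the intervals of the other 8 markers span 0.

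Lcn2 (Entrez 16819), the other urinary injury marker, did not follow Havcr1. Knockout arrays read 4.23, 3.80, 4.25, 4.63 and 4.40, and wild-type arrays lay between 3.91 and 4.71 with a median of 4.26. The groups overlapped over nearly their whole range, and both were higher in batch 2. Knockout minus wild type came to -0.12 ± 0.13 log2 (SE, 95% interval -0.40 to 0.17), and the limma adjusted p was 0.902. Leaving out single arrays moved it between -0.177 and -0.024, the second without knockout replicate 2, and without knockout replicate 4 it was -0.137. The batch itself went with a larger step in Lcn2 than the genotype did, at 0.464 for batch 2 minus batch 1, with an unadjusted limma p of 0.00819 and an adjusted p of 0.642.

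Vcam1 (Entrez 22329), the adhesion molecule that binds integrin alpha4 beta1 on leukocytes, was dim. Knockout arrays read 3.22, 3.45, 3.31, 3.58 and 3.56, and wild-type arrays 2.88 to 3.47 with a median of 3.42. The signal lay under the array median on all 11 arrays, wild-type replicate 4 was the lowest, and the groups overlapped. Its log2 difference was 0.07 ± 0.13 (SE, 95% interval -0.21 to 0.35) and the limma adjusted p 0.947. It was 0.064 with knockout replicate 4, the highest array, left out, and -0.001 with wild-type replicate 4, the lowest, left out. Endothelial markers, which could bring Vcam1 with them, averaged 4.31 to 4.60 on knockout and 4.28 to 4.48 on wild-type arrays over 13 genes, and their part in the Vcam1 signal was not tested.

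Keratins build the intermediate filaments of simple epithelia: Krt8 (type II) pairs with Krt18 (type I), and Krt20 is a type I keratin that injured tubules make anew. Krt8 (Entrez 16691) was the brightest of these probes relative to its arrays, above the upper quartile on all 11. Knockout arrays read 6.24, 6.29, 6.33, 6.73 and 6.30, and wild-type arrays 5.73 to 6.43 with a median of 6.12. Every knockout array lay above 5 of the 6 wild-type arrays, and wild-type replicate 1, at 6.43, was under knockout replicate 4 alone.

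Krt8 differed by 0.26 ± 0.15 on the log2 scale (SE, 95% interval -0.07 to 0.59). The exact within-batch permutation p was 0.107, the unadjusted limma p was the same at 3 digits and the limma adjusted p was 0.826. The knockout array with the highest Krt8 was replicate 4, the one with distal nephron signal, and without it the difference was 0.205 (adjusted p = 0.904). With the mean of 15 thick ascending limb genes as a covariate it was 0.172 (adjusted p = 0.950). That mean ran from 5.14 to 6.41 on knockout arrays, with 13 of the 15 genes higher by sign in knockout, and from 4.90 to 5.37 on wild-type arrays. Markers of S3 itself also differed by sign, with 15 of 17 higher in knockout, 3 of them at an unadjusted limma p under 0.05, and a mean of 8.09 to 8.87 on knockout and 7.57 to 8.40 on wild-type arrays. Of 16 markers of S1 and S2, 12 were lower, 2 at an unadjusted limma p under 0.05, with a mean of 6.63 to 7.82 and 6.84 to 7.76. Over all genes 53.4% were higher by sign. Of all probes 3.4% were higher and 2.76% lower at an unadjusted limma p under 0.05. Over the 11 arrays Krt8 had a Pearson r of 0.76 with the S3 mean and 0.69 with the thick ascending limb mean, as a description. Wild-type replicate 4 had the lowest Krt8 and the lowest S3 mean, and the part of segment makeup in Krt8 was not tested. Without wild-type replicate 1 the Krt8 difference was 0.329, with an unadjusted limma p of 0.0399 and an adjusted p of 0.696.

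Krt18 (Entrez 16668), the filament partner of Krt8, showed no matching pattern. Its brighter probe read 4.16, 4.35, 4.35, 4.47 and 4.35 on knockout arrays and 4.16 to 4.62 with a median of 4.39 on wild-type arrays. The value 4.35 came up on 5 of 11 arrays, where 5.03% of all probes have 1 value on 5 or more arrays, and the groups overlapped fully. The log2 difference was -0.06 ± 0.12 (SE, 95% interval -0.32 to 0.19) and the adjusted limma p 0.948. It was -0.17 within batch 1, 0.25 within batch 2 and -0.095 without knockout replicate 4. The second Krt18 probe averaged 3.02 ± 0.149 in knockout and 3.08 ± 0.243 in wild type (SD, n = 5 and 6), with a log2 difference of -0.03 ± 0.14, and did not follow the brighter probe over the arrays (Pearson r = -0.24 across 11 arrays, as a description).

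Krt20 (Entrez 66809) was under the array median on all 11 arrays. Knockout arrays read 3.42, 3.35, 3.44, 3.33 and 3.72, and wild-type arrays 3.10 to 3.52 with a median of 3.42. Knockout replicate 5 was the highest and the other knockout arrays lay inside the wild-type range. The log2 difference was 0.07 ± 0.12 (SE, 95% interval -0.20 to 0.34), with a limma adjusted p of 0.945. Leaving out knockout replicate 4, the lowest of its group, gave 0.105, and leaving out knockout replicate 5 gave 0.023.

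Clu (Entrez 12759), a secreted chaperone that coats cell debris and misfolded protein, varied more between arrays than between genotypes. Knockout arrays read 4.59, 4.92, 5.29, 5.99 and 5.32, and wild-type arrays 4.78 to 5.76 with a median of 5.26. The lowest and the highest of all 11 arrays were both knockout arrays, and the highest was again replicate 4. Clu differed by a log2 value of -0.20 ± 0.21 (SE, 95% interval -0.67 to 0.27), with a limma adjusted p of 0.902. Without knockout replicate 4 it was -0.288 (adjusted p = 0.902), while leaving out replicate 1 of the knockout gave -0.055 and of the wild type -0.095. Within batch 1 it was -0.31 while within batch 2 it was 0.12.

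**Figure D3:**
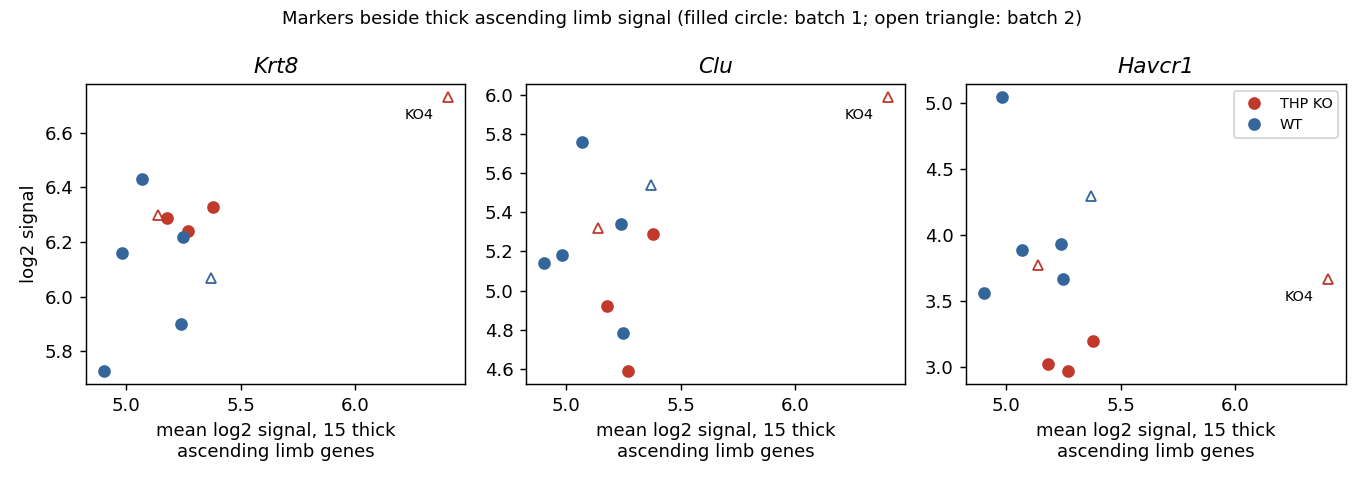
Log2 signal of Krt8, Clu and Havcr1 (y axes) against the mean log2 signal of 15 thick ascending limb genes (x axis), 1 point per array, with THP KO in red and WT in blue. Knockout replicate 4, at 6.41 on the x axis, stands to the right of all other arrays and is the highest array for Krt8 (6.73) and Clu (5.99), but not for Havcr1 (3.66).

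Sox9 (Entrez 20682), the transcription factor that marks regrowing tubule cells, hardly varied in wild type. Knockout arrays read 4.67, 4.95, 4.67, 4.23 and 4.35, and wild-type arrays 4.67 to 4.78 with a median of 4.67. The same value, 4.67, was deposited for 6 of the 11 arrays, and 1.64% of all probes have 1 value on 6 or more arrays. The lowest were the 2 knockout arrays of batch 2 and the highest a knockout array of batch 1. The log2 difference was -0.06 ± 0.11 (SE, 95% interval -0.31 to 0.19), at 0.06 within batch 1 and -0.38 within batch 2, and the limma adjusted p was 0.948. It was -0.024 with knockout replicate 4, the lowest array, left out. The 2 arrays with the lowest Sox9 were also those with the highest mean of 12 distal convoluted and connecting tubule genes, at 6.15 and 5.32. The other knockout arrays had 4.52 to 5.09 and wild-type arrays 4.35 to 5.0. In the neighbouring lists knockout replicate 5 did not stand out. Its mean was 5.14 for thick ascending limb genes (wild type 4.90 to 5.37) and 4.41 for collecting duct genes (wild type 4.21 to 4.60). The part of distal nephron signal in Sox9 was not tested.

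Cdkn1a (Entrez 12575), which encodes the p53-induced cell cycle inhibitor p21, was close in the genotypes. Knockout arrays read 4.52, 4.58, 4.20, 4.58 and 4.65, and wild-type arrays 4.44 to 4.86 with a median of 4.60. Knockout replicate 3 was the lowest and wild-type replicate 5 the highest, with the other 9 arrays between 4.44 and 4.65. The log2 difference was -0.13 ± 0.12 (SE, 95% interval -0.39 to 0.13), with a limma adjusted p of 0.881. Leaving out knockout replicate 3 gave -0.043, and leaving out wild-type replicate 5 gave -0.084.

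The markers did not form a single score from array to array. Of the 36 pairs of markers, 20 had a positive and 16 a negative Pearson r over the 11 arrays, with a median r of 0.07. For a marker against every other gene of the table, 49.5% of correlations were positive. In a permutation test with 100000 resamples 3 pairs had an unadjusted p under 0.05 and 0 pairs passed after Benjamini-Hochberg adjustment over the 36 pairs, where the smallest adjusted p was 0.563. The same was so for Spearman's rho (2 pairs at an unadjusted p under 0.05, 0 after adjustment) and for what was left after removing genotype and batch (2 and 0).

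Havcr1 and Cdkn1a had the highest r, at 0.72 (permutation p = 0.0236, adjusted p = 0.563), and a rho of 0.77 (permutation p = 0.00619, adjusted p = 0.223) over 11 arrays. Their r was 0.73 within batch 1 (8 arrays, exact permutation p = 0.0717) and 0.64 once genotype and batch were removed (permutation p = 0.0509), and batch 2 held too few arrays for a value. Without knockout replicate 1 and wild-type replicate 5, the arrays farthest from the median of Havcr1, it was 0.55. Among all other genes 112 had a higher r to Havcr1 than Cdkn1a did. Havcr1 and Krt18 were at r = 0.50 (rho = 0.39, permutation p = 0.119 for r and 0.239 for rho). Their r was 0.84 within batch 1 (8 arrays, exact permutation p = 0.0101) and 0.61 once genotype and batch were removed (permutation p = 0.0352, adjusted p = 0.582), but -0.24 without those 2 arrays, so the pooled relation rests on them.

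Sox9 had a negative r to all 8 other markers over the 11 arrays, but not under every other measure. With Krt20 its rho was 0.13 and its r within batch 1 was 0.20, with Vcam1 its r within batch 1 was 0.07, and with Krt18 its r was 0.03 without knockout replicate 4. The lowest r was with Lcn2, at -0.64 (permutation p = 0.0326, rho = -0.51 with p = 0.114), and the next with Clu, at -0.60 (permutation p = 0.0469, rho = -0.65 with p = 0.0314), each with an adjusted p of 0.563 for r. Within batch 1 these were -0.58 and -0.33, and with genotype and batch removed -0.28 and -0.44. Without the 2 arrays farthest from the median of the first gene, r was -0.71 for Lcn2 with Sox9 and -0.44 for Clu with Sox9. For Lcn2 these were knockout replicate 2 and wild-type replicate 6, so the 2 arrays with the lowest Sox9 stayed in. Without knockout replicate 4 alone, r was -0.51 for Lcn2 with Sox9, -0.33 for Clu with Sox9 and -0.18 for Krt8 with Sox9, which was -0.55 over all arrays. The filament partners Krt8 and Krt18 were at r = -0.08 (permutation p = 0.820, rho = -0.16 with p = 0.642), and 11906 other genes had a higher r to Krt8 than Krt18 did.

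**Figure D4:**
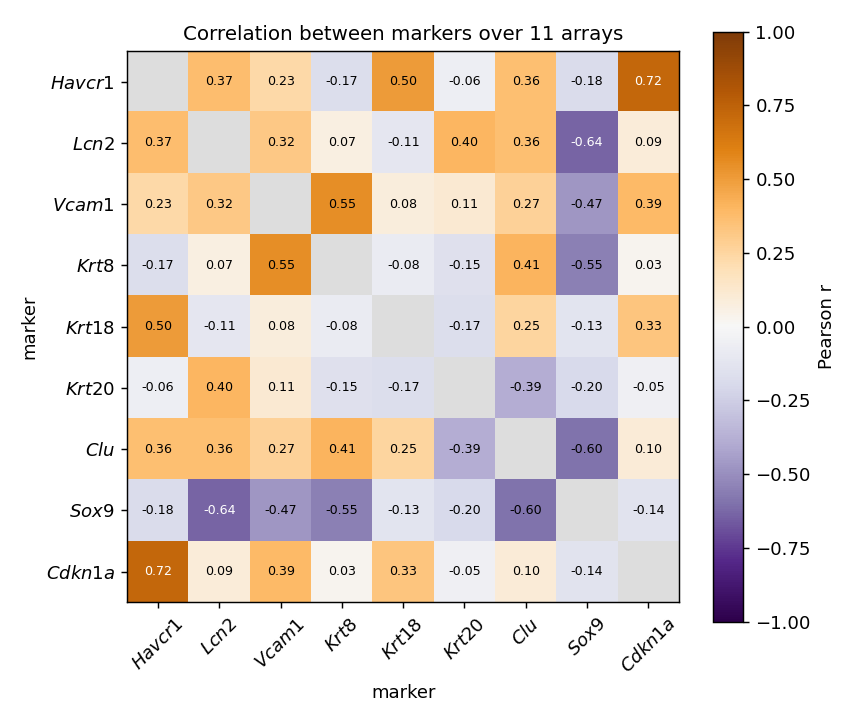
Pearson r between every 2 markers over the 11 arrays, with the value written in each cell (orange positive, purple negative, grey the diagonal). The cells range from -0.64 for Lcn2 with Sox9 to 0.72 for Havcr1 with Cdkn1a, and the Sox9 row is negative throughout in this measure.

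Counts by array ran from 0 to 7 of the 9 markers. On knockout replicates 1 to 5, 0, 3, 2, 5 and 7 of 9 markers lay above their own median over the arrays, and on wild-type replicates 1 to 6, 4, 3, 2, 4, 4 and 5 did. The highest counts, 7, 5 and 5, were the 3 arrays of batch 2, of either genotype. This count leaves out values equal to the median, such as 4.67 for Sox9 on 6 arrays. Counted above their own mean instead, 7 of 9 markers were high on knockout replicate 5 and on wild-type replicates 5 and 6. Knockout replicate 4 and wild-type replicate 2 had 6, and knockout replicate 1 had 3, so batch 2 did not hold the top places alone. Knockout replicate 1 had the lowest signal for 3 markers, Havcr1, Krt18 and Clu, with Krt18 at 4.16 there as on wild-type replicate 6. Knockout replicate 4 had the highest for Vcam1, Krt8 and Clu. Wild-type replicate 5 had the highest for Havcr1, Krt18 and Cdkn1a.

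**Figure D5:**
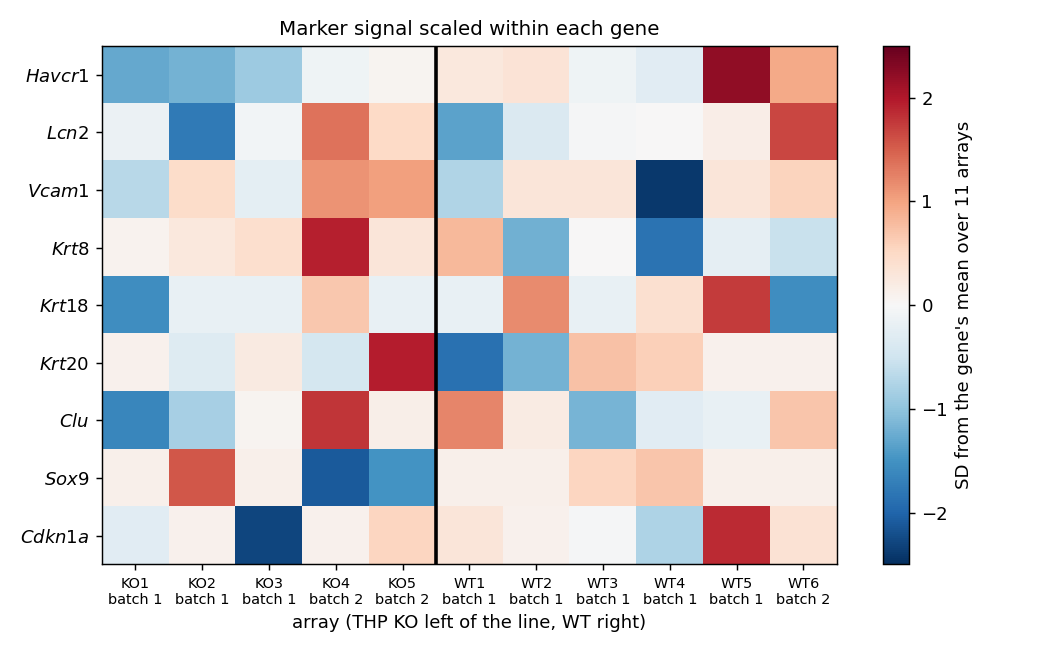
Each marker (rows) on each array (columns, 5 THP KO arrays left of the line and 6 WT arrays right of it), as the number of SDs from that gene's own mean over 11 arrays. Red is above and blue below the mean. No column is of 1 colour: knockout replicate 5 and wild-type replicates 5 and 6 are red for 7 of 9 markers, and knockout replicate 1 is blue for 6. The Havcr1 row is blue on the knockout arrays of batch 1, and more faintly on knockout replicate 4 and wild-type replicates 3 and 4.

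The 5 genes whose signal over 11 arrays was most like the mean of the scaled markers were Gon4l, Art1, Olfr688, Unc45a and BC052040, at a Pearson r of 0.88, 0.84, 0.83, 0.83 and 0.82. They were picked as the highest of the whole table, so these values are a description. Their log2 differences between genotypes were -0.28, -0.19, -0.21, -0.20 and -0.07, and none had an unadjusted limma p under 0.05.

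Other genes that injured tubules induce were read beside the markers, as a list of 44 measured genes. In the knockout 26 were higher and 18 lower by sign, 59.1% higher beside 53.4% of all genes, and the median log2 difference was 0.09, beside 0.015 over all genes. No gene passed over all probes. At an unadjusted limma p under 0.05, 4 of the 44 were higher and 1 lower, where 3.4% and 2.76% of all probes were. Without knockout replicate 4 these counts were 3 and 1 and the genes changed: Fga and Ccn1 dropped out and S100a6 came in, the last 2 named here after their values were seen. That array had the highest mean of the list, 4.80, against 4.52 to 4.56 on the other knockout arrays and 4.40 to 4.58 on wild-type arrays.

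The 4 genes of that list with the smallest p had unlike roles. Plin2, which coats lipid droplets, averaged 4.90 ± 0.27 in knockout and 4.37 ± 0.222 in wild type (SD, n = 5 and 6), a log2 difference of 0.43 ± 0.11 (SE, exact permutation p = 0.00595, limma adjusted p = 0.595). Sema5a, an axon guidance molecule, read 6.41 to 6.83 on knockout and 5.68 to 6.32 on wild-type arrays without overlap, a difference of 0.45 ± 0.13 (exact permutation p = 0.0119, limma adjusted p = 0.672). Ccl2, the chemokine that draws monocytes, was at 3.24 to 4.05 in knockout and 3.82 to 4.50 in wild type, a difference of -0.52 ± 0.16 (exact permutation p = 0.0179, limma adjusted p = 0.674). Fga, the alpha chain of fibrinogen, differed by 0.43 ± 0.17 (exact permutation p = 0.0417, limma adjusted p = 0.774).

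Receptors and partners of the markers were read in the same way. Of 25 measured genes, among them integrin subunits that bind Vcam1 and cyclin-dependent kinases that p21 blocks, 0 had an unadjusted limma p under 0.05. Over all probes 3.4% were higher and 2.76% lower at that cut, and 0 among so few genes lies near these shares. The median log2 difference of the list was 0.02. The smallest p belonged to Mmp9, a matrix protease that Lcn2 binds and protects (-0.35 ± 0.16, SE, exact permutation p = 0.0655), then Cdk2 (0.28 ± 0.17), the integrin subunit Itgav (0.26 ± 0.20) and Cdk4 (0.26 ± 0.20), with adjusted limma p from 0.813 to 0.862.

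The p53 targets measured beside Cdkn1a, 22 genes, had a median log2 difference of 0.02 and 0 genes at an unadjusted limma p under 0.05. Such a count in so few genes lies near the shares over all probes, 3.4% higher and 2.76% lower. The p53 ubiquitin ligase Mdm2 was at 0.34 ± 0.20 (SE), the stress-induced sestrin Sesn2 at -0.41 ± 0.27, and the death receptors Tnfrsf10b and Fas at 0.16 ± 0.11 and 0.23 ± 0.17, with adjusted limma p from 0.828 to 0.857. Proliferation genes, which rise when tubules regrow, had a median of -0.08 over 21 genes, with 7 higher and 14 lower by sign and 0 at an unadjusted limma p under 0.05. By sign 33.3% of these proliferation genes were higher, beside 53.4% of all genes. Only 7 of the 21 lay above the array median on every array. Many of the signs are thus of dim signals, which limits what this share can show, and a change in proliferation was not tested. The smallest p among the proliferation genes were of the cyclin Ccnb2 (-0.26 ± 0.15), the mitotic checkpoint kinase Bub1 (-0.16 ± 0.10) and the Aurora kinases Aurkb (-0.14 ± 0.10) and Aurka (0.15 ± 0.11), with adjusted limma p from 0.827 to 0.856. Of these, Bub1 read 2.67 to 3.11, under the array median on every array.

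Partners and targets of Sox9, 18 genes, split evenly by sign with 9 higher and 9 lower, beside 53.4% higher of all genes. They had a median of -0.01 and 0 genes at an unadjusted limma p under 0.05, near the 3.4% higher and 2.76% lower of all probes. The receptor Notch2 was at 0.29 ± 0.19 (SE), the Notch targets Hey1 and Hes1 at -0.16 ± 0.10 and 0.20 ± 0.15, and the Sox9 relative Sox10 at -0.17 ± 0.12, with adjusted limma p from 0.844 to 0.860. Leukocyte markers averaged 3.99 to 4.29 on knockout and 3.96 to 4.17 on wild-type arrays over 19 genes, and fibroblast and mural cell markers 4.01 to 4.19 and 4.04 to 4.14 over 13 genes. Among the leukocyte genes the receptor gene Csf1r averaged 6.93 ± 0.23 in knockout and 6.34 ± 0.338 in wild type (SD, n = 5 and 6), and Cx3cr1 5.43 ± 0.158 and 5.48 ± 0.28. Csf1r differed by 0.58 ± 0.19 (SE), with an unadjusted limma p of 0.0104 and an adjusted p of 0.735. Over the 19 leukocyte genes the median was 0.03, with 1 higher and 1 lower at an unadjusted limma p under 0.05. Of all probes 3.4% and 2.76% were. The part of leukocytes, fibroblasts and mural cells in the marker signals was not tested. In bulk tubule samples fewer cells of a type and less RNA per cell cannot be told apart.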

How the data were processed

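Per the labels' protocols, total RNA of S3 tubules came from an Arcturus Picopure extraction and was labelled by the WT Pico method of Affymetrix. The authors deposited log2 values, made with Partek 6.6 and RMA per the submitters' processing notes. RMA draws array distributions together and summarises each probe set robustly, which can leave equal values on several arrays. Array medians lay between 3.85 and 4.01. Any batch correction before deposit and the build of the probe annotation are not given in the sources used here.

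Probes were named from the platform annotation (23521 with 1 symbol, 1814 with several, 16010 with none). All 41345 probes entered a limma model (version 3.58.1, R 4.3.3, with genotype and batch as terms, 8 residual degrees of freedom, two-sided, no filter, Benjamini-Hochberg adjustment over all probes, threshold 0.05). The fit was tested on simulated data. Single genes were also tested by exact permutation of genotype within batches. Pairs of markers were tested by permutation of arrays, and with under 10 arrays over every arrangement.

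The members, the 15 other gene lists and the tests were chosen with earlier results of these data known. The naming rule took all members, the 4 genes of smallest limma p in each pathway list, the brightest 2 of a cell type list, the 5 genes most like the markers, and Umod. Of 292 listed symbols 272 had a probe. Alternatives left batch out of the model, made it a random block or used batch 1 alone. Others added a replicate block, a thick ascending limb covariate, array weights or a trended robust prior, dropped dim probes, or rescaled arrays by quantiles or by their medians. The rest were other probe rules, a threshold of 0.1 and each array left out. The list counts, injury gene values and pair correlations without knockout replicate 4 were added after seeing the data. Plots used matplotlib 3.10.9 in Python 3.11.15.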

Additional observations from a re-analysis of the deposited data

Results flagged for a closer look

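A single array stood far from the rest of its group for 12 of the 86 gene and genotype groups checked. The usual rate by chance of about 1 in 20 does not apply to this count. The groups share the same arrays, their genes were chosen by the naming rule and some values repeat. Among the markers these were Krt8 on knockout replicate 4 (6.73, next 6.33), Krt20 on knockout replicate 5 (3.72, next 3.44) and Cdkn1a on knockout replicate 3 (4.20, next 4.52). Knockout replicate 4 also stood apart for the distal nephron genes Slc12a1 (10.05, next 7.35) and Aqp2 (8.48, next 5.52). Knockout replicate 2 was low for the p53 targets Mdm2 (4.22, next 5.10) and Sesn2 (4.41, next 5.09) and high for Aurka (5.04, next 4.66). In wild type, Fga was low on replicate 3 (2.85, next 3.37), Cdk2 on replicate 1 (3.97, next 4.30) and BC052040 on replicate 4 (4.89, next 5.15), while Art1 was high on replicate 5 (4.31, next 3.85).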

How the results depend on the processing

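Of the repeats of the marker differences under other settings, 41 could not change the difference by construction. Of the other 172, 165 kept their direction and 7 changed sign, and 0 passed the threshold. Havcr1 stayed between -0.95 and -0.66, with adjusted limma p from 0.375 to 0.998, and was left out by the filter on dim probes, so the count of markers at an unadjusted p under 0.05 was 0 there and otherwise 1, or 1 to 2 without single arrays (2, with Krt8, without wild-type replicate 1). Changes of sign were of small values: Lcn2 was 0.002 with batch as a random block, Sox9 0.055 within batch 1 alone and 0.067 with the replicate block, and Vcam1 -0.023 with the replicate block. Without single arrays Krt18 ran from -0.171 to 0.006, Vcam1 from -0.001 to 0.107 and Sox9 from -0.147 to 0.055. Leaving out wild-type replicate 6 leaves no wild-type array in batch 2, so its differences repeat those of batch 1 alone. The counts above hold both settings, and the same sign change of Sox9 is counted under each. The number of probes past the threshold, 0 in the reported test (limma, with 1141 lower and 1405 higher at an unadjusted p under 0.05), was 3 in batch 1 alone, 4 at a threshold of 0.1, 1 with 1 probe per gene and 0 to 11 without single arrays (11 without knockout replicate 5, 2 without knockout replicate 3, 3 without wild-type replicate 6 and 1 without wild-type replicate 1), and the cause was not tested. The number was 0 with the replicate block, and same-numbered arrays did not deviate together (correlations from -0.12 to 0.10). So few arrays, some same-numbered ones in different batches, cannot settle whether the numbers pair anything. No marker passed in any of these settings, and no pair of markers passed under the 5 other settings or without single arrays. The number of arrays and signals near background limit what could be seen.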
